A study of Mus musculus with 2 samples.

Results

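The imprinted genes Gnas, Nespas, Nnat, Blcap, Mcts2 and H13 lie in 3 separate places on mouse chromosome 2, and all 6 carried H3K9me3, a histone mark of silenced chromatin, in intestinal stem cells, where 55.6% of all protein-coding genes had a peak by the same rule. A peak was assigned to a gene when it shared a base with the gene's span on GRCm38 (mm10) or with the 5 kb on either side. This gave 8 peaks out of 40119 in the deposited list, at 6 of 49595 annotated genes. The tallest covered the 5′ end of the antisense RNA Nespas and ran on into Gnas, the next covered Nnat, and the third began just downstream of the first start of Gnas. Of the 8 annotated starts of these genes, 2 lay inside a peak, those of Nnat and Mcts2. The share was 11.0% over all annotated starts, and 19.3% over promoters with at least 16 CpG, as all 8 have. Member starts that were not covered include those of the main Gs-alpha transcript, of Blcap and of H13.

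The study holds 1 library from chromatin precipitated for H3K9me3 and 1 control, which the labels call input in the title and IgG in the antibody field. Both came from intestinal stem cells with high GFP and low CD24, sorted from 12 mice of the C57BL/6 strain at 8 weeks of age. The mice carried Lgr5-EGFP-IRES-creERT2, in which the promoter of the stem cell gene Lgr5 drives GFP and an inducible Cre, together with setdb1 fl/fl, a floxed gene for an H3K9 methyltransferase. No label says whether Cre had been induced, and both libraries share the genotype. With 1 library per group nothing was tested between libraries, and all intervals cover counting error alone. A list of peaks of a silencing mark measures no expression and cannot check the sorted cell type. Peaks lay at 3 of 4 crypt stem cell markers and at 4 of 8 markers of other cells, against 55.6% of all protein-coding genes.

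Imprinted genes are expressed from the copy inherited from 1 parent. The choice is set by DNA methylation laid down in the egg or sperm at control regions, and on the methylated copy the zinc finger protein Zfp57 binds the hexamer TGCCGC and recruits Trim28, which brings the methyltransferase Setdb1. H3K9me3 is known from mouse embryonic stem cells to sit on the methylated copy of such regions. Gnas encodes the G-protein subunit that couples hormone receptors to adenylyl cyclase, and its locus holds a chain of promoters: Nesp, which is active on the maternal copy, then Nespas, Gnasxl and exon 1A, which are active on the paternal copy, then the Gs-alpha promoter, which is active on both in most tissues. Nnat encodes a small membrane protein and lies within Blcap. Mcts2 is a retrogene, a copy of the X-linked gene Mcts1 inserted into H13, which encodes signal peptide peptidase. Peaks of the deposited list do not separate the parental copies.

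RefSeq promoters (GRCm38.p6) allow the covered and uncovered starts to be set side by side. The promoter table holds 8 starts for the members, 4 of them at Gnas and none for Nespas. It does not name the Gnas starts. They are called Nesp, exon 1A (a pair 19 bp apart) and Gs-alpha here after the known order of the promoters. Each window runs from 250 bases before the start to 50 after it, 5′ to 3′ on the gene's own strand, and capitals mark the hexamer TGCCGC or its reverse complement GCGGCA. The nested genes Nnat and Mcts2 are shown because a peak lay over their starts, the exon 1A start because a peak ended just before it, and Blcap, H13 and Gs-alpha because no peak covered their starts.
Nnat (chr2:157559828-157560127, + strand): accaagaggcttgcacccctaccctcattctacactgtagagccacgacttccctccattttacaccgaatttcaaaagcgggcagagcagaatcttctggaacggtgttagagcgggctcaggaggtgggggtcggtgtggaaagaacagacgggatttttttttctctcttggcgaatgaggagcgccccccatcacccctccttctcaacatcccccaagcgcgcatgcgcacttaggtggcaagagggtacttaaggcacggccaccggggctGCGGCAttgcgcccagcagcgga
Mcts2 (chr2:152686898-152687197, + strand): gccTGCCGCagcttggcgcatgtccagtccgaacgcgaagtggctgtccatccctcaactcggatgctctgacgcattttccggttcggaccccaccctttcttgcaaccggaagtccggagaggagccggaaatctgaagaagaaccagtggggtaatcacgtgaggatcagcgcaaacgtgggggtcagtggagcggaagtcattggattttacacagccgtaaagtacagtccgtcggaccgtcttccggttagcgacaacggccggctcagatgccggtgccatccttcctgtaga
Exon 1A of Gnas (chr2:174327499-174327798, + strand): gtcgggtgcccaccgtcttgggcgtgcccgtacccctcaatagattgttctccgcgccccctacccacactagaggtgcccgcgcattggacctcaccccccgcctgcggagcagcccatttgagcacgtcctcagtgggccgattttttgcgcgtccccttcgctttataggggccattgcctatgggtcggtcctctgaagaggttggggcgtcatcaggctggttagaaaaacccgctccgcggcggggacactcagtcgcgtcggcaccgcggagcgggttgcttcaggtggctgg
Blcap (chr2:157566312-157566611, - strand): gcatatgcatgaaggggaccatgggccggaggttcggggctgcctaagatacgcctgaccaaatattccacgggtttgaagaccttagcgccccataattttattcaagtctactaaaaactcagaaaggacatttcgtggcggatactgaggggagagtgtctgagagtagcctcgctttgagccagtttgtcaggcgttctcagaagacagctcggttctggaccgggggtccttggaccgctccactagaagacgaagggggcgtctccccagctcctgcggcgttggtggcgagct
H13 (chr2:152669211-152669510, + strand): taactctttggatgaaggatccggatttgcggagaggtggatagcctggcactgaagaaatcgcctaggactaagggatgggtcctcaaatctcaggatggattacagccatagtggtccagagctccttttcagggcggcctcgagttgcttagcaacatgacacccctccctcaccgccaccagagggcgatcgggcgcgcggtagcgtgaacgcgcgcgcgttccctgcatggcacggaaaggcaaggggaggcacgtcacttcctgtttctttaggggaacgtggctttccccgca
Gs-alpha of Gnas (chr2:174329756-174330055, + strand): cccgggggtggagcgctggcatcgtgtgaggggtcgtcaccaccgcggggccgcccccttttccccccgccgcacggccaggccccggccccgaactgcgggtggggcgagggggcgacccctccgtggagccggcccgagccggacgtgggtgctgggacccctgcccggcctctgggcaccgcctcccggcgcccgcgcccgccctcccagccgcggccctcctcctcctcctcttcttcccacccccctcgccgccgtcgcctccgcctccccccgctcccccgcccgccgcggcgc

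Of the 8 starts, 2 lay inside a peak, those of Nnat and Mcts2, and 5 lay inside a peak or within 100 bp of its edge. The 5 include both exon 1A starts, which are 19 bp apart and near the same peak, so they are not separate promoters. Over all 32851 starts in the table, 11.0% lay inside a peak, 0.852% inside a strong peak (the top 10% of the list, at least 50.8 normalized tags) and 12.8% inside a peak or within 100 bp of one. The peak over the Nnat start was strong in that sense and the peak over the Mcts2 start was not. The hexamer occurred in the windows of the same 2 starts and in none of the other 6. In the Mcts2 window it began 247 bp before the start on the gene's strand, and in the Nnat window it began 27 bp after the start on the opposite strand. Among all promoter windows 11.6% held the hexamer on either strand, with 17.4% of those whose start lay inside a peak, 16.1% of those inside a strong one and 10.9% of those whose start lay outside every peak. All 8 member windows were rich in CpG, with 16 at Nesp to 40 at Gs-alpha against a median of 7 over all promoters. Among the 10841 promoters with at least 16 CpG, 25.7% held the hexamer and 19.3% had the start inside a peak. A match is a description of the letters in these windows, and the peaks extend beyond them.

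At Gnas (174284320 to 174346744) 4 peaks were called, and 2 of these held 90.3% of their tags. The tallest, at 174295044 to 174301300, held 202.5 ChIP tags (exact Poisson 95% interval 176 to 232), or 138.6 when brought to the depth of the control library, against 13 control tags (6.92 to 22.2). Its deposited normalized tag count, the ChIP tags scaled to a fixed library total, was 212.1, and the authors' fold over control was 10.66 (counting interval 6.09 to 20.4). It was 6256 bp wide. Nespas is the antisense RNA of the locus and its span ends at 174295436, which is its 5′ end, since Gnas is on the + strand and Nespas is annotated as antisense to it. The peak held the last 392 bp of Nespas and ran on for 5864 bp past it, into the stretch of Gnas where the Gnasxl promoter, which makes a long form of the G-protein subunit, is known to lie. The Gnasxl start is not in the promoter table, so no distance to it is given.

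The other tall peak of the locus, and the other peak shared with Nespas (174281237 to 174295436), lay at 174284360 to 174288028, 7016 bp away from the first. It began 40 bp downstream of the Nesp start, so it covered the beginning of the Nesp transcript, which encodes a neuroendocrine secretory protein, and not the bases before it. It held 104.5 ChIP tags (85.4 to 127), or 71.5 at control depth, against 7 control tags (2.81 to 14.4), and was 3668 bp wide. Its normalized tag count was 109.5 and the authors' fold was 10.21 (4.79 to 26.0). This peak had the highest score of the 8, at 20, where the score is the caller's own value for the peak and the median of the whole list was 11.

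Exon 1A, the start of a non-coding RNA of the paternal copy, lay 43.4 kb downstream of the Nesp start. A narrow peak of 637 bp at 174327087 to 174327724 ended 25 bp before its first start and 44 bp before its second. It held 23.5 ChIP tags (15.0 to 35.1), or 16.1 at control depth, against 3 control tags (0.619 to 8.77), and the authors' fold was 5.36 (1.62 to 27.8). Although its normalized tag count was only 24.6, its density was 38.6 normalized tags per kb (24.6 to 57.7), against 19.9 to 33.9 at the other 7 member peaks. The interval takes in most of that range, so a higher density here was not detectable at this depth. Its score of 19.5 was close to that of the Nesp peak. The 3 control tags gave 4.71 control tags per kb, against 1.91 to 2.08 at the 2 tall peaks of Gnas; the part of the control in this result was not tested. The lncRNA Gm30189 overlaps the same peak.

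No peak covered the Gs-alpha start, which lies 2257 bp past the first exon 1A start. The exon 1A peak ended 2282 bp before it and the next peak began 4632 bp after it. That last peak, at 174334638 to 174335138, was at the list's common width of 500 bp and held 9.5 ChIP tags (4.45 to 17.7), close to the lowest number in the list, 9. Its control stood at the lowest value of the list, 0.5 tag, so its fold of 13 rests on that value. Within Gnas most tags of the called peaks lay in the tall peaks toward the Nesp end of the gene. The narrow peaks on either side of the Gs-alpha start held fewer, and the list gives no tags between peaks.

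**Figure D1:**
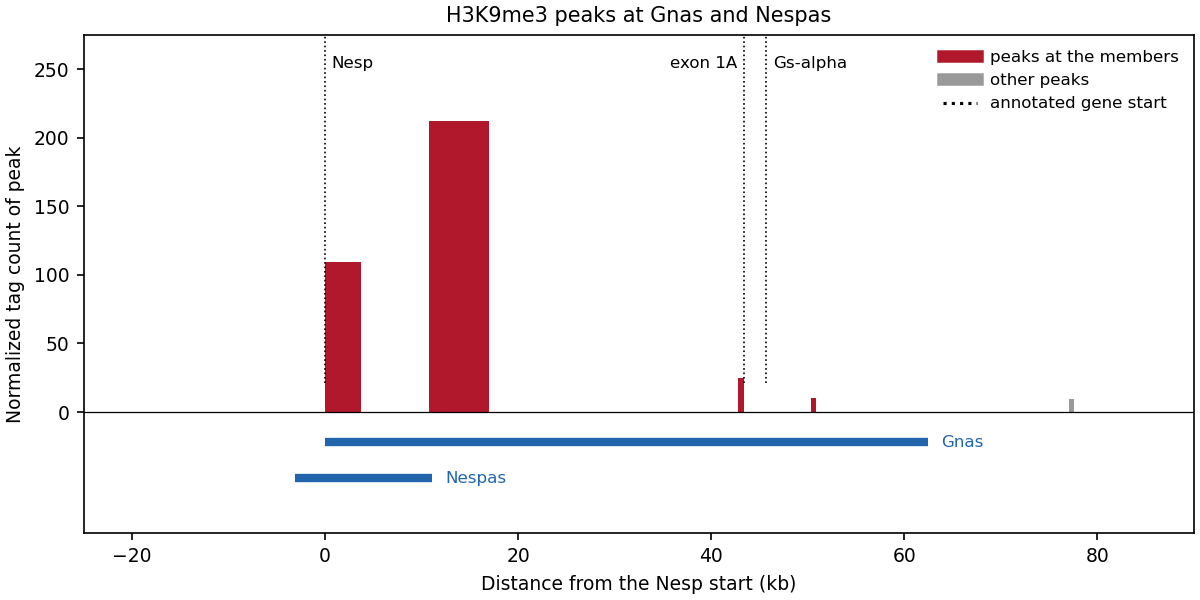
H3K9me3 peaks along Gnas and Nespas, with the distance from the Nesp start in kb on the horizontal axis and the normalized tag count of each peak on the vertical axis. Bars have the width of the peak (the narrowest are widened to be visible), blue lines are gene spans and dotted lines are annotated starts. The peaks of 109.5 and 212.1 normalized tags stand at the Nesp end, and the Gs-alpha start has no peak over it.

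Nnat (157560078 to 157562525) and Blcap (157556362 to 157566361) shared a single peak, and it lay over the inner gene. It ran from 157557973 to 157562080, a width of 4107 bp, began 2105 bp before the Nnat start and covered 2003 bp or 81.8% of the Nnat span. In it were 125 ChIP tags (104 to 149), or 85.5 at control depth, against 8 control tags (3.45 to 15.8). Its normalized tag count was 131.0 and the authors' fold was 10.69 (5.26 to 25.3). The start of Blcap, which encodes a small membrane protein first described in human bladder cancer and runs on the opposite strand, lay 6283 bp past the Nnat start and 4281 bp beyond the edge of the peak. The values of Nnat and Blcap are the same because their spans overlap.

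Mcts2 (152687148 to 152687946) and H13 (152669422 to 152708668) are nested in the same way but their peaks held fewer tags. A peak of 672 bp at 152686504 to 152687176 lay over the Mcts2 start, with 644 bp before the gene and 29 bp inside it. It held 15 ChIP tags (8.40 to 24.7), or 10.3 at control depth, with the control at the lowest value of 0.5 tag, and its normalized tag count of 15.7 was below the list median of 17.3. The Mcts2 sequence resembles that of Mcts1, and how reads that match both were placed is not given in the sources used here. What part such reads had in this peak was not tested. No peak was called at Mcts1 or within 5 kb of it. The H13 start, 17.7 kb upstream of Mcts2, was 17043 bp from the nearest peak.

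The tallest peak of H13 was not at a promoter of the table but at the far end of the gene. It lay at 152705679 to 152708103, ended 565 bp before the end of H13 and began 17733 bp past the end of Mcts2. Its 58 ChIP tags (44.0 to 75.0), or 39.7 at control depth, stood against 8 control tags (3.45 to 15.8), and the authors' fold of 4.96 (2.36 to 12.0) was the lowest of the 8 peaks. A smaller peak with 14 ChIP tags (7.65 to 23.5) and a control at the lowest value lay 1304 bp before it, at 152703686 to 152704375. The control carried 3.30 tags per kb in the end peak and 1.95 tags per kb in the Nnat peak, from 8 control tags in each. The part of the control in the H13 end peak was not tested.

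**Figure D2:**
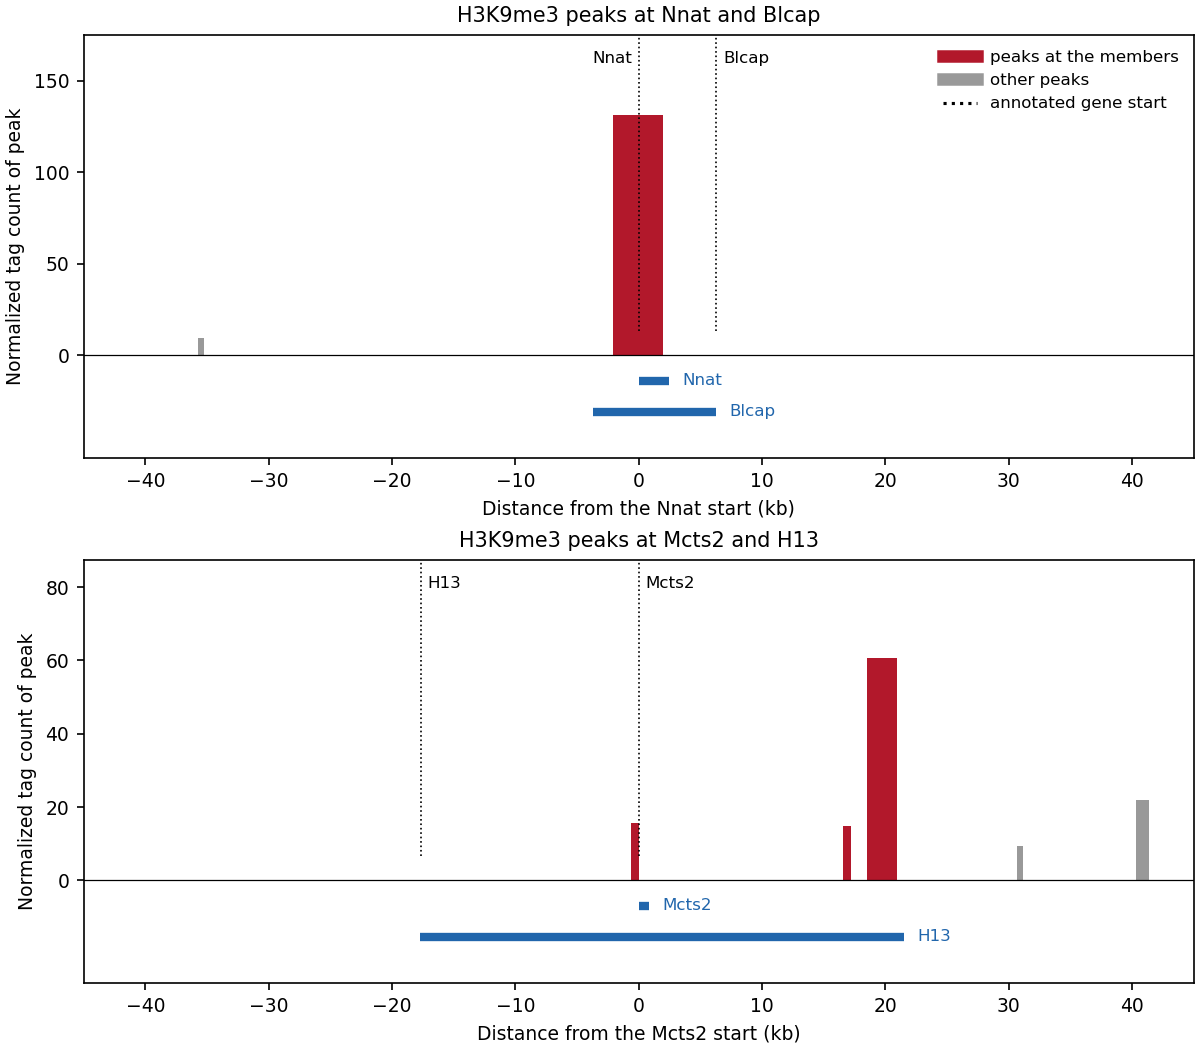
H3K9me3 peaks at the nested pairs Nnat and Blcap (top) and Mcts2 and H13 (bottom), with the distance from the start of the inner gene in kb and the normalized tag count of each peak. Peaks cover the starts of Nnat (131.0) and Mcts2 (15.7), the Blcap and H13 starts are bare, and the tallest peak of H13 (60.8) stands near the end of that gene; blue lines are gene spans.

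The 8 peaks together held 552 ChIP tags, or 377.8 at control depth, against 40.5 control tags, a ratio of 9.33 (counting interval 6.77 to 13.2). Over the whole list the same ratio was 10.2, which lies within that interval. By domain the ratio was 9.90 (6.52 to 15.7) at Gnas and Nespas, 10.7 (5.26 to 25.3) at Nnat and Blcap and 6.62 (3.33 to 15.0) at Mcts2 and H13, and these intervals overlap. The 3 tallest peaks held 78.3% of the members' normalized tags. The deposited p-values of the authors' caller ran from 1.91e-89 at the tallest Gnas peak to 1.32e-05 at the last one. The clonal fold, the caller's measure of repeated tag positions, was 0.89 at the H13 end peak and 0.94 to 0.98 at the other 7, with a list median of 0.97.

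**Figure D3:**
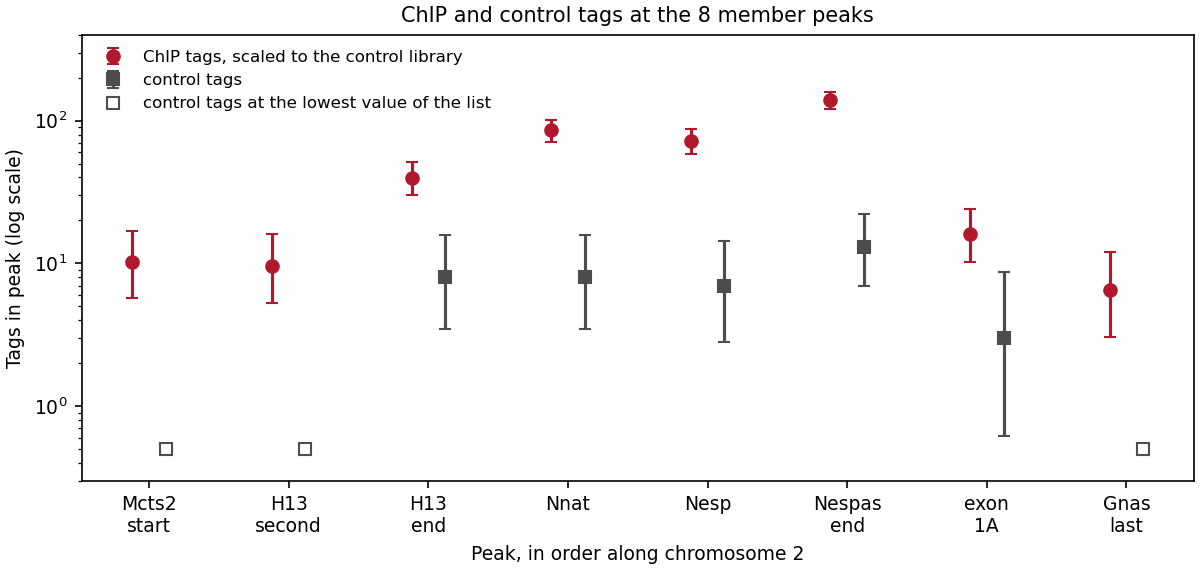
ChIP tags at control depth (red circles) and control tags (squares) at the 8 member peaks, on a log scale, with exact Poisson 95% intervals. ChIP lay above control at each peak, as the list's lowest fold of 4 requires, from 6.5 against 0.5 tags at the last Gnas peak to 138.6 against 13 tags at the peak over the end of Nespas; open squares are controls at the lowest value of the list, which have no interval.

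The 3 tallest member peaks ranked higher by width than by density. Among the 2784 peaks of chromosome 2, the tallest Gnas peak ranked 8 by normalized tag count and 4 by width, the Nnat peak ranked 26 and 13, and the Nesp peak ranked 34 and 17. By normalized tags per kb the same 3 peaks ranked 340, 439 and 557. Their densities of 33.9, 31.9 and 29.9 normalized tags per kb compare with a median of 23 per peak over the list, with 27.6 over the peaks of chromosome 2 combined and with 31.1 over all peaks combined. The H13 end peak ranked 158 by tag count and 78 by width. The Mcts2 peak ranked 1475 by tag count and lay among the ordinary narrow peaks of the chromosome.

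Peaks of like height and width on chromosome 2 were compared next. By the distance in log2 normalized tag count and log2 width, the 3 peaks with a gene within 5 kb that were nearest to the tallest Gnas peak lay at the lncRNA Gm46754 (distance 0.036), the lipocalin gene Obp2b (0.048) and Cnbd2 (0.305). For Nnat they lay at the zinc finger gene Zfp64 (0.174) and the pseudogenes Gm52497 (0.208) and Gm13597 (0.231). Peaks like the H13 end peak lay at the lncRNA Gm36090 (0.080) and the transcription factor gene Tfap2c (0.114). The Mcts2 peak was most like those at Slx4ip (0.011), at Hoxd8 and Hoxd9 (0.042) and at the pseudogene Gm13292 (0.047). The likeness covers 2 measures of 1 library.

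**Figure D4:**
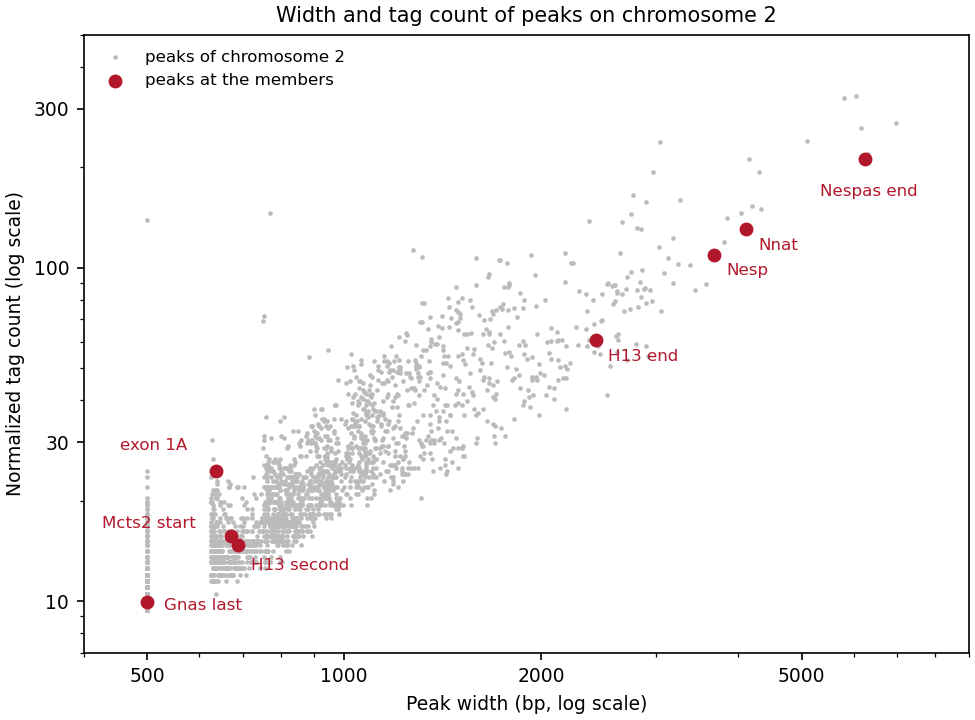
Width in bp and normalized tag count of the 2784 peaks of chromosome 2 (grey) and of the 8 member peaks (red), both on log scales. The peak over the end of Nespas, with 6256 bp and 212.1 normalized tags, and the Nnat and Nesp peaks lie among the widest and tallest, and the other members' peaks are spread down to 500 bp.

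The surroundings of the 3 places differed in how many other peaks they held. At Gnas and Nespas, 92.3% of the normalized tags of all peaks from 100 kb before to 100 kb after the genes lay in the members' own peaks, and the 3 other peaks there held 9.43 to 11 normalized tags. The next peak below was 87059 bp away and the next above 26247 bp away. Around Nnat and Blcap 10 other peaks held 9.43 to 20.4 normalized tags each, 6 of them lay at Src, which encodes a tyrosine kinase, and the member peak held 47.9% of the tags. Around Mcts2 and H13 there were 8 other peaks of 9.43 to 24.6 normalized tags, and the members' peaks held 41.3% of the tags. Of 13 other protein-coding genes within 100 kb of the members, 9 had a peak within 5 kb that was not a member peak. This compares with 52.4% of the 1782 protein-coding genes of chromosome 2 with any peak. Neighbouring genes could share a peak, as Defb25 and Rem1 did. The tallest peak at the 9 genes held 27.2 normalized tags, at Bcl2l1, a brake on apoptosis whose span reaches past 100 kb. Id1, which lies next to H13, and Nelfcd, which lies next to Gnas, had none.

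Among all protein-coding genes 55.6% had a peak within 5 kb, so the presence of a peak at the 6 members says little on its own. A strong peak was present at 5 of the 6, all but Mcts2, against 6.61% of protein-coding genes. With the top 5% in its place, at least 72.8 normalized tags, it was present at 4 of the 6 against 3.26%, as H13 fell below. The 5 genes with a strong peak share 4 strong peaks in all. The 4 genes left with the top 5% are Gnas and Nespas, and Nnat and Blcap. Each of these pairs shares its strong peaks, and together they hold only the 3 tallest member peaks. Nespas is an antisense RNA, while both shares are of protein-coding genes. The tallest peak at Gnas was exceeded at 90 of the 12108 protein-coding genes with a peak (0.743%), that at Nnat at 200 (1.65%), that at H13 at 1017 (8.40%) and that at Mcts2 at 8268 (68.3%).

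The members were set beside 22 other genes at germline differentially methylated regions (DMRs), the regions whose methylation is inherited from egg or sperm. For each gene the tallest peak anywhere in its span or the 5 kb either side was taken. Positions of the DMRs were not used, so these peaks need not lie at a DMR. At Airn, for example, the peak began at 12818652, while the annotated start is at 12741311. Of the 22 genes, 20 had a peak, against 55.6% of protein-coding genes, and 13 a strong one (Peg10 and Sgce share theirs), against 6.61%. The median of the tallest peaks of the 20 was 64.4 normalized tags, against 21 over the protein-coding genes with a peak. None of the 20 had a peak as tall as that of Gnas and Nespas. The nearest was Peg3, a zinc finger gene on chromosome 7, at 142 normalized tags, whose 135.5 ChIP tags (114 to 160) lay below the interval at Gnas (176 to 232) and overlapped that at Nnat (104 to 149). The Gnas peak was also wider than the tallest peak of each of them, which were 694 to 4357 bp wide, and 12 of the 20 had a denser tallest peak, with a range of 20.8 to 51.4 normalized tags per kb. H13 had 10 of the 20 above it. Mcts2, at 15.7 normalized tags, was level with Rasgrf1, the lowest of the list, while Zdbf2 and Gpr1 had no peak. Of the 17 genes of the list with a start in the promoter table, 8 had a start inside a peak. This counts a gene when any of its starts was covered, and some genes, such as Mest with 3, have several. The 11.0% of all starts inside a peak is counted per start, so it is not a like share, and no share per gene is given.

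**Figure D5:**
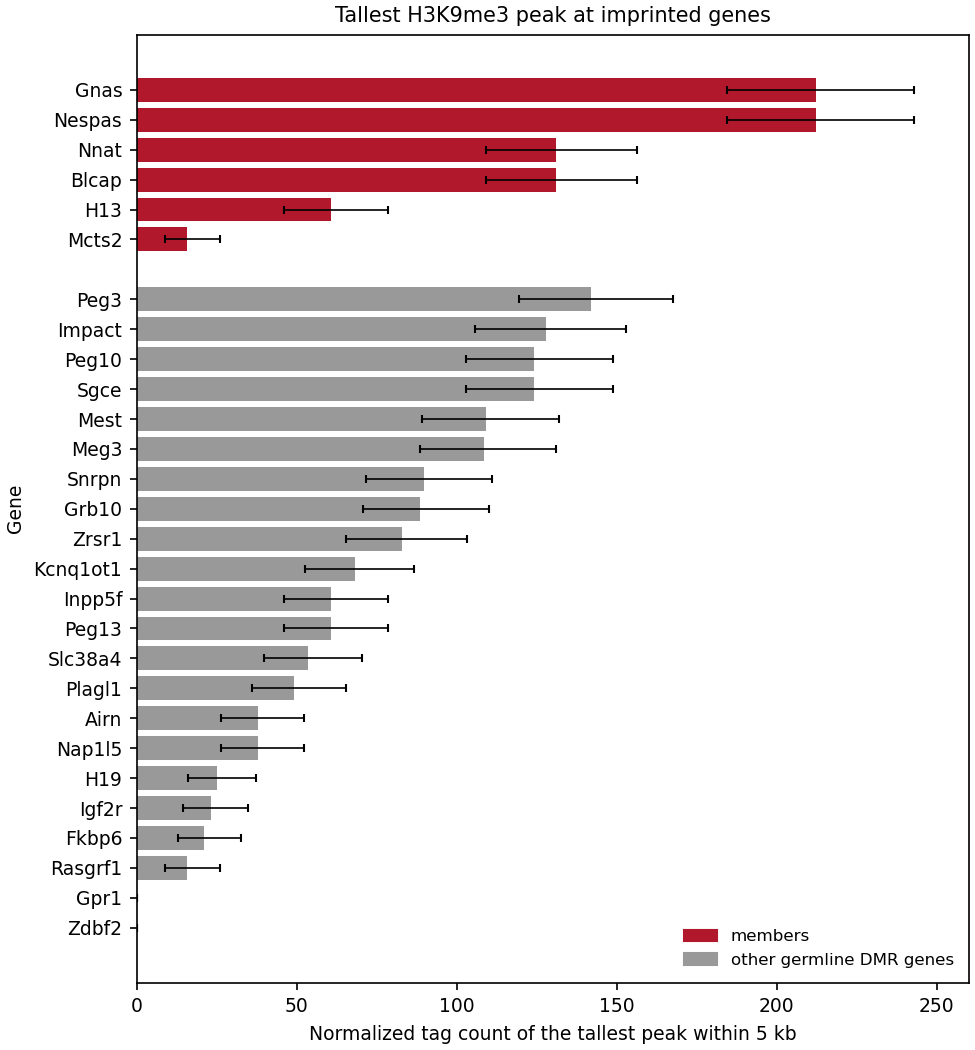
Normalized tag count of the tallest peak within 5 kb of each member (red) and of 22 other genes at germline DMRs (grey), with exact Poisson 95% intervals scaled from the tags. Gnas and Nespas share a peak of 212.1, above Peg3 at 142, and Nnat and Blcap share a peak of 131.0; the shortest bars are Mcts2 and Rasgrf1 at 15.7, and Gpr1 and Zdbf2 have no peak.

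At Nnat in Blcap and Mcts2 in H13 the inner start was covered and the host start was not, and other imprinted genes inside a larger gene were set beside them. An uncovered host start is the common case, since 11.0% of all annotated starts lay inside a peak. The start of Nap1l5, a retrogene on chromosome 6, lay inside a peak of 37.7 normalized tags, while the start of its host Herc3 was 8125 bp from the nearest peak. The start of Zrsr1, a retrogene related to a splicing factor on chromosome 11, lay inside a peak of 82.8 normalized tags. The outer start of its host Commd1 was 9032 bp from a peak, although a second Commd1 start lay inside the Zrsr1 peak. Peg13, a non-coding RNA in Trappc9 on chromosome 15, had a peak of 60.8 normalized tags, and the table holds no start for either gene. The tallest peak at Inpp5f, a host gene on chromosome 7, held 60.8 normalized tags and ended 694 bp before the gene's only start in the table. A second strong peak at Inpp5f began 76214 bp past that start, inside the gene. Within this set the Mcts2 peak was the smallest, and its interval of 8.40 to 24.7 ChIP tags lay below the 25.2 to 49.8 at Nap1l5. The Nnat peak was the tallest, and its interval of 104 to 149 ChIP tags lay above the 62.5 to 98.5 at Zrsr1.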

How the data were processed

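The submitters' processing notes name Bowtie2 2.2.8, HOMER 4.10.1 and the builds GRCm38 and mm10. Options of the peak caller: not given in the sources used here. Per the file headers, the deposited normalized tag count and the control tags are coverage signals, the score is the caller's own, the fold over control is a ratio with a lowest value of 4, and the deposited p-value of each peak reached at most 8.32e-05. Control tags stood at their lowest value, 0.5, in 43.0% of peaks. ChIP tags were recovered from the normalized values, whose steps of 0.524 are worth 0.5 tag (100% of values under 30 were whole steps within 0.1 of a step). The median peak held 16.5 tags, and the control was sequenced to 0.684 of the ChIP tag total.

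Gene spans came from a RefSeq table of GRCm38.p6 without exons, after 348 genes with scaffold positions were left out, and gene starts from its promoter table. All members and genes of both imprinted lists matched by symbol, except Nespas, a synonym of Gnasas1. Intervals are exact Poisson for tags and exact conditional binomial for ratios, at 95%. Overlap counting and intervals were tested on simulated data. The named genes are the 6 members, genes within 100 kb of them, both imprinted lists, Zfp57, Trim28, Setdb1 and Dnmt1, and for each member's tallest peak the 3 most like peaks of chromosome 2, of which 1 is not reported here. The members and lists were chosen with earlier results of these data known, and the 10% threshold of a strong peak, its 5% alternative and the comparison by CpG number were added after the data were seen. Other settings tried were the flank, the overlap rule, the fold and score thresholds, merging of peaks, the measure ranked, a pseudocount and the strand of the hexamer. Python 3.11.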

Additional observations from a re-analysis of the deposited data

How the results depend on the processing

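All 6 members kept a peak with the gene span alone, with 10 kb on either side, by peak centre, at a fold of at least 8 and with peaks within 1 or 5 kb merged. At a fold of at least 8 the H13 end peak, with a fold of 4.96, and the exon 1A peak, with a fold of 5.36, were lost. Mcts2 and H13 then kept only peaks whose control stood at the lowest value. At a score at or above the list median 5 members kept one, and the number of member peaks was 5 in place of 8. The member without one was Mcts2, whose only peak, the one over its start, had a score of 9.5 against a median of 11. The H13 end peak, with a score of 10, was lost there too, and H13 kept only its smaller peak, with a score of 11. Over the other settings the number of member peaks was 6 to 9. The summed ratio was 7.95 to 10.2 under its alternatives, within its counting interval. Members with a strong peak were 5, and 4 with the top 5% of the list. Ranks on chromosome 2 depended on the measure. The tallest Gnas peak ranked 8 by normalized tags, 247 by score, 340 by tags per kb and 1775 by fold. For Nnat these were 26, 461, 439 and 1770, with 13 among peaks of at most 10 control tags. The H13 end peak ranked 158 by normalized tags, 1895 by score, 979 by tags per kb and 2741 by fold. The Mcts2 peak ranked 1475, with 2234 by score and 355 by fold. Ranks by fold depend on controls at the lowest value. On the gene's own strand alone 1 hexamer was left in place of 2. The tallest Gnas peak held 13 control tags and has no rank among peaks of at most 10. No paired analysis was possible because each group holds 1 library, and for the same reason no library could be left out.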

Other observations

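Of 4 genes of the silencing pathway that acts at imprinted regions, 2 had a peak within 5 kb, against 55.6% of all protein-coding genes. No peak was called at Zfp57, which binds the methylated hexamer, or at Setdb1, or within 5 kb of either. Trim28, the scaffold between them, had 2 peaks of at most 14.1 normalized tags, and the maintenance DNA methyltransferase gene Dnmt1 had 3 of at most 18.9. Among the 4 genes 0 had a strong peak, against 6.61% of all protein-coding genes, and a list of 4 genes cannot be told apart from that share. The microRNA genes Mir296 and Mir298, which lie next to Nespas on chromosome 2, had no peak within 5 kb.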
